A study of Homo sapiens with 8 samples.

Results

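Integrins are the adhesion receptors that hold epithelial cells to the matrix beneath them. The mRNA of 10 subunits (ITGA2, ITGA3, ITGA5, ITGA6, ITGAV, ITGB1, ITGB4, ITGB5, ITGB6 and ITGB8), chosen by gene symbol among 19124 listed genes, was followed in HCT116 and HT29 cells. Both are established human colorectal cancer lines grown in RPMI. Cells of each line received 15 nM of an siRNA against RPL9, RPL17 or RPL27, which encode proteins of the large ribosomal subunit, or of a negative control siRNA (NC). Lipofectamine 2000 carried the siRNA in every group, NC included, and total RNA was taken 48 h later. This gave 8 libraries, 1 for each line and siRNA. No siRNA was repeated within a line, and nothing in the labels says that the libraries came from separate cultures. The tests of an siRNA therefore take the 2 lines as replicates, and the tests between lines take the different siRNAs as replicates, so that a p-value measures the spread between these libraries.

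An integrin is a pair of an alpha and a beta chain, and the pair sets the ligand. ITGB1 pairs with many alpha chains, ITGAV pairs with several beta chains, and ITGB4 pairs with ITGA6 in the hemidesmosome, the plaque that ties keratin filaments to laminin under epithelia of the gut and skin. Receptors built on ITGAV with ITGB6 or ITGB8 bind the latent form of TGF-beta and release or expose the active cytokine.

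The deposited values are RPKM (read density scaled to transcript length and library depth). They appear to behave as exon-wise RPKMs added together would, and the assignment of reads to genes is not described. No level of one subunit is therefore set against that of another. Rough depth estimates from single-exon genes ran between 20.7 and 26.5 M reads per library. The targeted genes stood at 26.7% to 38.5% of the NC library in HCT116 and at 13.7% to 18.7% in HT29. Epithelial markers summed to between 19412 and 31255 RPKM in HCT116 and between 41442 and 48516 RPKM in HT29, with all 8 of 8 above a mean of 1 RPKM in each line. In HCT116 VIL1 cleared that mean only through the RPL9 library. It had 2.89, 0 and 0.933 RPKM there with RPL9, RPL17 and RPL27 siRNA and 0.233 RPKM with NC. The 8 fibroblast markers summed to between 355 and 428 RPKM in HCT116 and between 257 and 439 RPKM in HT29. Leukocyte markers summed to at most 136 RPKM in HCT116, where CD3E was at 0 in every library, and to at most 173 RPKM in HT29, and endothelial markers to at most 9.78 and 10.9 RPKM in HCT116 and HT29. The part of these markers in the results was not tested. The HT29 NC library stood apart. Its levels, relative to the mean of the other libraries, fell with transcript length (rank correlation -0.63 across 12324 genes, which are not independent replicates). The other libraries ran between 0.15 and 0.28, each against a mean that includes HT29 NC. Integrin transcripts are long, between the 62.8th percentile (ITGB1, 3784 nt) and the 94.5th (ITGB8, 8751 nt) of measured genes. Tests that rest on the HT29 NC library are therefore given also without it, or with each library's trend with length removed.

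**Figure D1:**
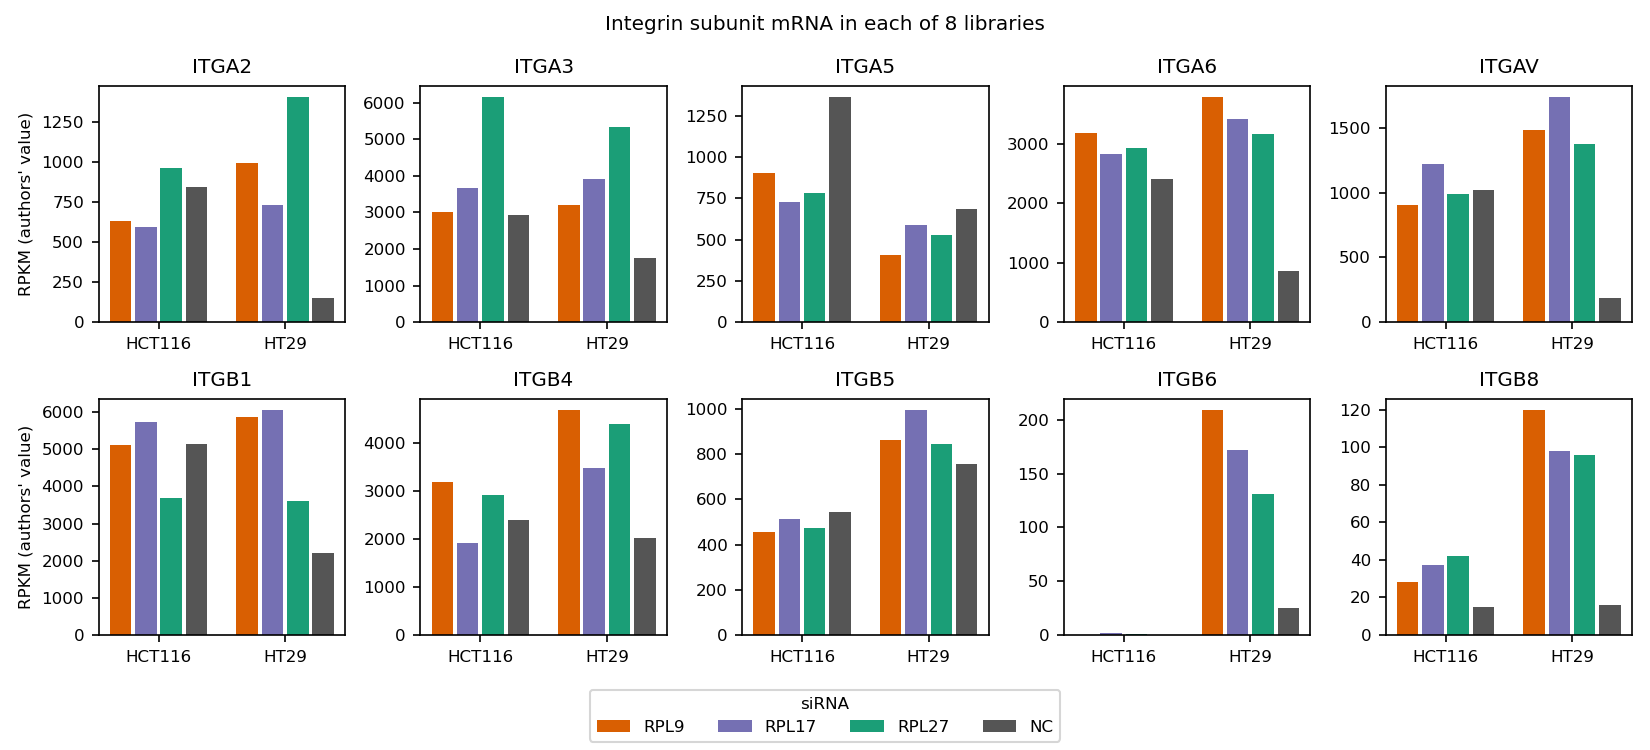
RPKM of the 10 integrin subunits in each of the 8 libraries, 1 bar per library, on a linear axis from 0 that differs between panels. ITGB6 is near 0 in all HCT116 libraries, ITGA5 is highest in the NC library of each line, and the HT29 NC bar is the lowest HT29 bar for every subunit except ITGA5.

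Among the subunits, the widest line differences were those of ITGB6, ITGB8 and ITGB5, beta chains that pair with ITGAV. ITGB6, the epithelial partner that activates latent TGF-beta, was near 0 in HCT116. It was listed at 0, 1.73 and 0.957 RPKM in HCT116 with RPL9, RPL17 and RPL27 siRNA and at 0 with NC, against 209, 172, 131 and 25.5 RPKM in the matching HT29 libraries. Every HT29 library was above every HCT116 library, and the share of all genes so separated was not computed. In bulk RNA, fewer expressing cells and less RNA per cell cannot be told apart. The difference, HCT116 minus HT29 on the log2(RPKM + 1) scale, was -6.13 (SE 0.48), with an adjusted p of 0.00229 by limma with Benjamini-Hochberg adjustment over 14281 tested genes. Its size depends on the pseudocount, between -8.14 and -4.32 over the alternatives, and its call does not. The gene spans chr2:160099666-160200313 on the minus strand of GRCh38. Its RefSeq promoter window (GRCh38.p14, chr2:160200223-160200522, minus strand, from 250 bases before to 50 after the annotated start) is shown because ITGB6 has the widest line difference of the set. Its GC content of 31.7% lies at the 1.74th percentile of 35116 promoter windows, and it holds no CpG.
ITGB6: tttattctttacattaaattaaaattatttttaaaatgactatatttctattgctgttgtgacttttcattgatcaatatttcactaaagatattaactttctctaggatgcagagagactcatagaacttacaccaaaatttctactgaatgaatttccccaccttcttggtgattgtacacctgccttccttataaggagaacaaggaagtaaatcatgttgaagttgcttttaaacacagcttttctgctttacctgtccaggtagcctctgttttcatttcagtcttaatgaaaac

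ITGB8, which also activates latent TGF-beta, was present in both lines. It stood at 28.3, 37.5 and 42.0 RPKM in HCT116 with RPL9, RPL17 and RPL27 siRNA and at 14.8 RPKM with NC, against 119.9, 98.1, 95.7 and 15.7 RPKM in HT29. The RPL siRNA libraries of HCT116 were all below those of HT29, while the NC libraries were close. The line difference of -1.16 (SE 0.34) did not pass in 8 libraries (limma, adjusted p = 0.149). In the 6 RPL siRNA libraries alone it was -1.53 (SE 0.21) and passed (limma, adjusted p = 0.0058). The ITGB8 window (GRCh38.p14, chr7:20330650-20330949, plus strand) is shown for contrast with that of ITGB6. It has a GC content of 71.7% and 28 CpGs, and capitals mark its 2 GC boxes.
ITGB8: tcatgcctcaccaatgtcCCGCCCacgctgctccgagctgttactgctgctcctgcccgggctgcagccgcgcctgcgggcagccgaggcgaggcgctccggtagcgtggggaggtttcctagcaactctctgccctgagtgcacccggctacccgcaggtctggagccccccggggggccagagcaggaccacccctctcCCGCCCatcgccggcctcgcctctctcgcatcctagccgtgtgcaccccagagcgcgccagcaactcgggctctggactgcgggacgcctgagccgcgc

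ITGB5, another ITGAV partner, was lower in every HCT116 library. It had 456, 515 and 473 RPKM in HCT116 with RPL9, RPL17 and RPL27 siRNA and 545 RPKM with NC, against 861, 995, 847 and 756 RPKM in HT29. The lines did not overlap, and the share of all genes without overlap was not computed. The difference was -0.79 (SE 0.14, limma adjusted p = 0.0407) in 8 libraries and -0.90 (SE 0.06, adjusted p = 0.000768) in the 6 RPL siRNA libraries. Leaving out any single RPL siRNA library of either line ended the ITGB5 call in the fit of the rest, with differences between -0.78 and -0.74 and adjusted p of at most 0.264. With 8 libraries it also ended without a filter on low values (limma, adjusted p = 0.0738) and in limma without trend (adjusted p = 0.0791). ITGB6 and ITGB5 were the 2 of 10 subunits called between the lines in 8 libraries, where 3.61% of all tested genes were called.

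The fibronectin receptor chain ITGA5 had the opposite order. It had 904, 729 and 784 RPKM in HCT116 with RPL9, RPL17 and RPL27 siRNA and 1362 RPKM with NC, against 405, 587, 527 and 686 RPKM in HT29. All HCT116 libraries were above all HT29 libraries, and the share of all genes so separated was not computed. The difference of 0.76 (SE 0.18) missed the threshold in 8 libraries (limma, adjusted p = 0.093). It passed in the 6 RPL siRNA libraries, at 0.68 (SE 0.16, limma adjusted p = 0.0306). ITGA5 was the only one of the 10 subunits called higher in HCT116 there, where 11.1% of all genes were called higher.

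Among the 6 RPL siRNA libraries 8 of 10 subunits were called between the lines, against a background of 22.9% of genes called. Of these, 7 were lower in HCT116. Beside ITGB5, ITGB6 and ITGB8 these were ITGB4, the hemidesmosome chain (-0.67, SE 0.07, limma adjusted p = 0.00247), and ITGAV (-0.56, SE 0.07, adjusted p = 0.00391). The others were the collagen receptor chain ITGA2 (-0.50, SE 0.08, limma adjusted p = 0.0115) and the laminin receptor chain ITGA6 (-0.21, SE 0.05, adjusted p = 0.0335). ITGB4 had 3180.3, 1919 and 2908 RPKM in HCT116 with RPL9, RPL17 and RPL27 siRNA, against 4676, 3471 and 4381 RPKM in HT29. ITGA3, the other laminin-binding alpha chain, and ITGB1 did not pass, with differences of 0.01 (95% interval -0.16 to 0.17) and -0.08 (-0.21 to 0.05). In the fit of 8 libraries the ITGA2, ITGA6, ITGAV and ITGB1 differences were positive (0.24, 0.22, 0.19 and 0.25), each with an interval that includes 0, so their direction rests on the NC libraries. With the length trend removed and all 8 libraries kept, 5 of 10 subunits were called, where 9.17% of genes were: ITGB6 (-6.26), ITGB8 (-1.45), ITGB5 (-0.90), ITGB4 (-0.64) and ITGA5 (0.64).

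**Figure D2:**
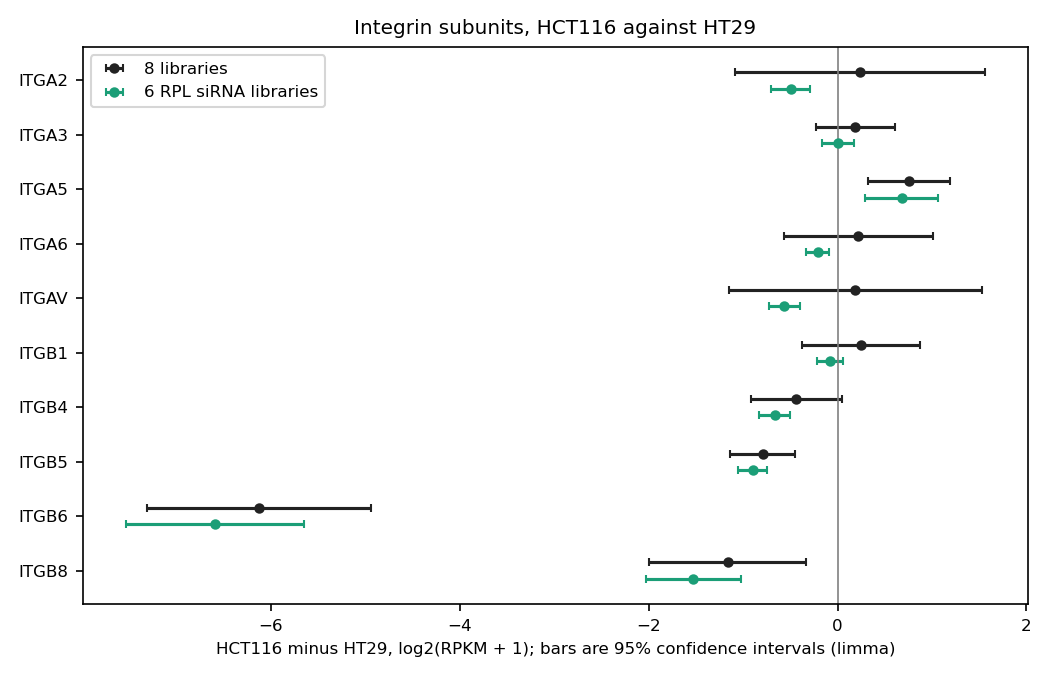
Difference between HCT116 and HT29 for each subunit on the log2(RPKM + 1) scale, with 95% confidence intervals from limma, in all 8 libraries (black) and in the 6 RPL siRNA libraries (green). ITGB6 lies near -6 in both fits, and the intervals of ITGA2, ITGA6 and ITGAV narrow and move below 0 without the NC libraries.

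Ligands and partners of these receptors also differed between the lines. In 8 libraries as deposited, where 3.61% of all genes were called and 2.88% were called lower in HCT116, all called genes of the partner lists were lower in HCT116. Of 15 tested RGD and other matrix ligands 2 were called, TGFBI, a secreted matrix protein that integrins bind (-6.04, SE 0.44, limma adjusted p = 0.00184), and agrin, AGRN (-1.16, SE 0.15, adjusted p = 0.0159). Of 15 tetraspanins and membrane partners, which organise integrins in the membrane, 3 were called, TSPAN8 (-8.94), TSPAN1 (-4.53) and CD82 (-1.33). TSPAN8 was listed at 1.22, 0, 0.539 and 0 RPKM in HCT116 with RPL9, RPL17, RPL27 and NC siRNA, against 662, 758, 435 and 901 RPKM in HT29. Of 7 hemidesmosome partners 1 was called, the transmembrane collagen COL17A1 (-2.72). Of 12 other integrin subunits 1 was called, the collagen receptor chain ITGA1 (-3.13), of 7 genes of the latent TGF-beta complex 1, TGFB2 (-1.65), and of 22 focal adhesion signalling genes 1, the scaffold NEDD9 (-3.80). None of 11 laminin chains, 30 activators and actin linkers or 21 trafficking genes was called as deposited. The list medians lay between -0.19 and 0.37, with 0.09 for all genes.

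Removal of the length trend gave 4.25% of all genes called higher in HCT116 and 4.93% lower. The 9 partner genes called as deposited were called lower again (ITGA1 at -3.45, TGFBI at -5.96, TSPAN8 at -8.73), and others passed in each direction. The laminin chains LAMA4 (2.30) and LAMC1 (0.42) were higher and LAMA3 (-0.83) and LAMB1 (-0.84) lower, 4 of 11. Of the 15 matrix ligands 2 were higher, CYR61 (1.01) and fibronectin, FN1 (0.79), and 4 lower, among them tenascin C, TNC (-3.32). ITGA2B (0.86), the platelet fibrinogen receptor chain, was higher, which with ITGA1 made 2 of 12 other subunits. Of the 30 activators and actin linkers 2 were higher, the kindlin FERMT2 (0.67) and paxillin, PXN (0.46), and 4 lower, among them the tensins TNS4 (-1.66) and TNS3 (-1.47) and the kindlin FERMT1 (-0.84). Of the 22 focal adhesion genes 2 were higher, RHOA (0.43) and CAV1 (0.43), and 4 lower, led by NEDD9 (-3.92), BCAR1 (-0.84) and the kinase SRC (-0.74). Membrane partners were called lower for 4 of 15, and no trafficking gene was called. The list medians then lay between -0.08 and 0.18, with 0.09 for all genes. Of 8 epithelial markers 5 were called lower as deposited and 6 with length removed, among them KRT20 (-7.01 and -6.82) and VIL1 (-7.89 and -8.12), genes of the differentiated gut epithelium. The part of these markers in the integrin differences was not tested.

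Within HCT116 the RPL siRNAs, averaged, left most integrin mRNAs close to NC. The mean of the 3 RPL siRNA libraries was at least 1 above NC on the log2(RPKM + 1) scale for 1 of 10 subunits, ITGB8 (1.20), where 4.61% of all genes were. Another 7 subunits lay between -0.24 (ITGA2) and 0.48 (ITGA3), ITGA5 was at -0.76, and ITGB6, listed at 0 in NC, stayed under 2 RPKM. The ITGA3 mean covers unlike values, 0.05, 0.33 and 1.07 with RPL9, RPL17 and RPL27 siRNA. With 1 library per siRNA these are values without a test.

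In HT29 the same siRNAs gave far larger values. The mean was at least 1 above NC for 8 of 10 subunits, where 22.4% of all genes were, led by ITGAV (3.02), ITGA2 (2.71), ITGB6 (2.67), ITGB8 (2.65) and ITGA6 (2.01). ITGAV had 1483, 1735 and 1374 RPKM in HT29 with RPL9, RPL17 and RPL27 siRNA, against 187 RPKM with NC. In HCT116 it had 907, 1220.4 and 990.2 RPKM, against 1018 RPKM with NC. HT29 NC was the lowest of the 8 libraries. The laminin receptor chain ITGA6 had 3778, 3418 and 3159.9 RPKM in HT29 with RPL9, RPL17 and RPL27 siRNA, against 852 RPKM with NC, and 3172, 2833 and 2932 RPKM in HCT116, against 2412 RPKM with NC. The RPL siRNA libraries were above NC in each line, with a wider gap in HT29. Over all genes the HT29 difference ran with transcript length, with a median of -0.80 among the shortest 10% of genes and 1.43 among the longest 10%, against 0.11 and -0.00 in HCT116, and its median over all tested genes was 0.19. With the length trend removed from each library, 5 of 10 subunits were at least 1 above NC in HT29 (10.8% of genes), namely ITGB6 (2.01), ITGAV (1.85), ITGA2 (1.43), ITGB8 (1.28) and ITGA6 (1.10). ITGA5 was then at -1.04, where 11.3% of genes were at least 1 lower. ITGB4 was at 0.07, against 1.04 as deposited. With 1 NC library in HT29, a response of the line and a property of that library cannot be told apart.

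**Figure D3:**
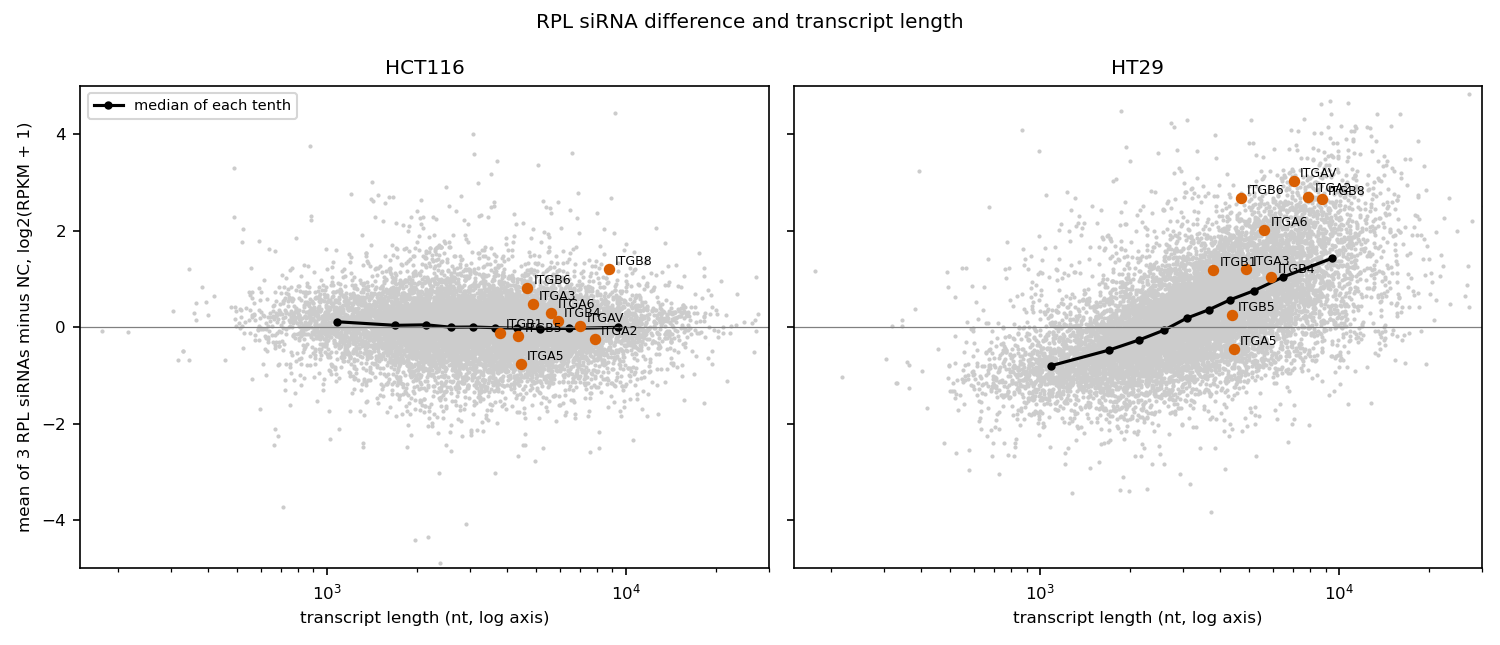
Mean of the 3 RPL siRNA libraries minus NC on the log2(RPKM + 1) scale against transcript length (log axis) for each gene (grey), the integrin subunits (orange) and the median of genes in 10 length classes (black), in HCT116 and HT29. The black line is flat in HCT116 and climbs from -0.80 to 1.43 across HT29. In HT29 ITGAV, ITGA2, ITGA6, ITGB6 and ITGB8 lie furthest above it, and ITGB1 and ITGA3 lie above it by less.

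**Figure D4:**
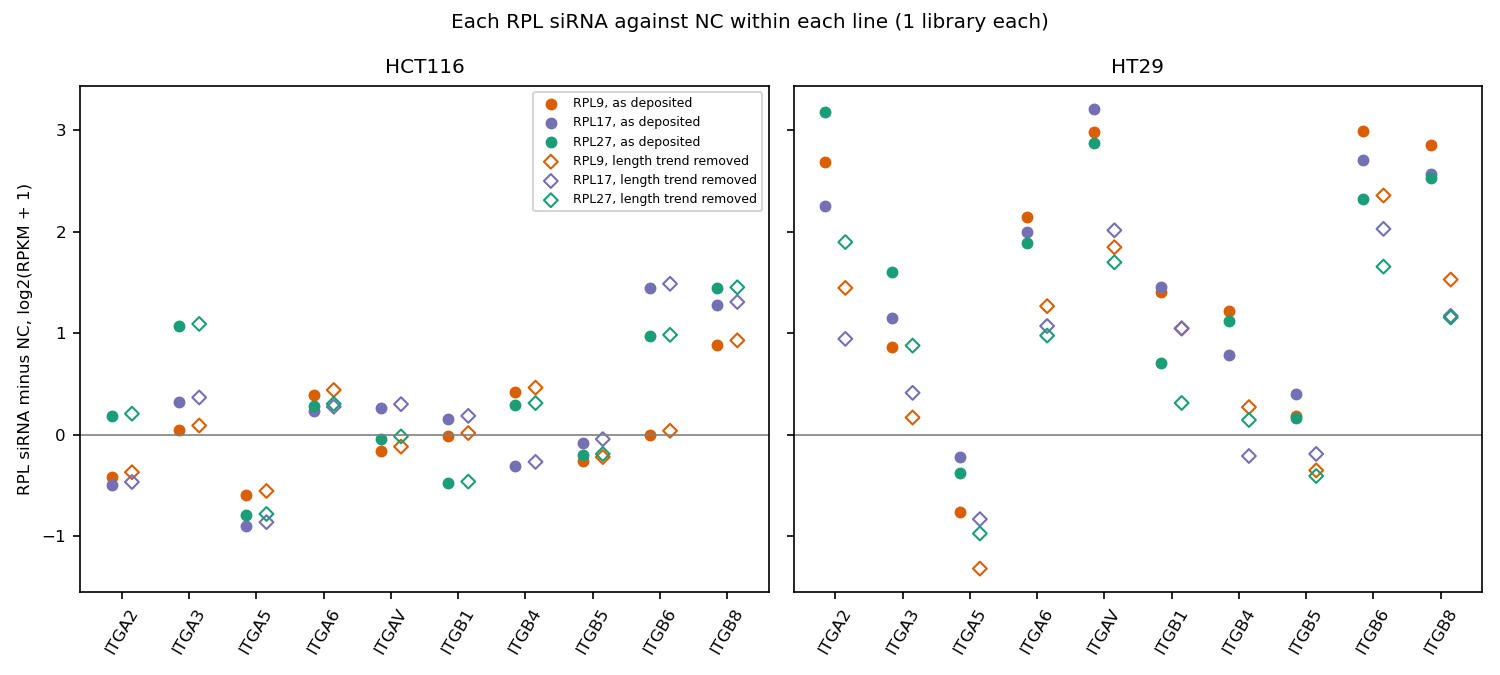
Each RPL siRNA library minus the NC library of the same line on the log2(RPKM + 1) scale, as deposited (filled circles) and with each library's length trend removed (open diamonds). ITGA5 is below 0 with every siRNA in each line, ITGB8 is above 0, and the HT29 diamonds lie below the HT29 circles.

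Over the 2 lines, no subunit passed when the 3 RPL siRNAs, averaged, were tested against NC in 8 libraries, where 0.168% of all genes were called (24 of 14281). ITGB8 came closest, at 1.93 (SE 0.39, limma adjusted p = 0.0878), and was higher than NC in 6 of 6 RPL siRNA libraries. The median of all genes in that comparison was 0.10. With the length trend removed 7.35% of genes were called, and 3 of 10 subunits were among them. ITGB8 was higher by 1.26 (SE 0.24, limma adjusted p = 0.0337) and ITGA3 by 0.50 (SE 0.10, adjusted p = 0.037), while ITGA5 was at -0.89 (SE 0.18, adjusted p = 0.037). ITGA3 and ITGB8 were above and ITGA5 below the NC library of the same line in 6 of 6 RPL siRNA libraries as deposited. ITGA6, not called with the length trend removed, was also above NC in 6 of 6. The RPL siRNA libraries of a line share 1 NC library, and the share of all genes on the same side of NC in 6 of 6 was not computed. Without the HT29 NC library HCT116 is the only line with a control. The lone NC library is then assumed to vary as the RPL siRNA libraries do, which alone give the spread. In that fit 12.9% of genes were called, with ITGA3 at 0.48 (SE 0.10, limma adjusted p = 0.0311), ITGA6 at 0.30 (SE 0.07, adjusted p = 0.0465), ITGB8 at 1.20 (adjusted p = 0.0535) and ITGA5 at -0.76 (adjusted p = 0.0756). Without the HCT116 NC library, under the same assumption, 48.6% of genes and 8 of 10 subunits were called.

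ITGA5 encodes the alpha chain of the main fibronectin receptor. Its RefSeq promoter window (GRCh38.p14, chr12:54419217-54419516, minus strand) is shown because the subunit stood against the others in direction. In all, 6 motifs were searched on both strands in all 35116 windows: the AP-1 site TGANTCA (in 7.71% of windows), the GC box GGGCGG (44.95%), the E-box CACGTG (7.26%), the TATA box TATAAA (11.5%), the SMAD element GTCTAGAC (0.202%) and the NF-kB consensus (0.191%). Capitals mark 1 GC box and 1 AP-1 site, whose first base lies at -6 from the annotated start. The ITGB6 window held none of these letters and the ITGB8 window only GC boxes. A match is a description and no evidence of binding.
ITGA5: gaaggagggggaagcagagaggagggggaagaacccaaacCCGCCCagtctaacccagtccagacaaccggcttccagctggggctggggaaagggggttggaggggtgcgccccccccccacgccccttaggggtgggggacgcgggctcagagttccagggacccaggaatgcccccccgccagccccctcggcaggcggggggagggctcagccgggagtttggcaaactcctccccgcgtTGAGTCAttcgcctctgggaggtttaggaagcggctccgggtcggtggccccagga

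The RPL siRNA difference was tested between the lines in a fit where the RPL siRNA libraries of 1 line serve as its replicates. HCT116 minus HT29, it was called for 4 of 10 subunits, all lower, where 16.8% of all genes were called lower and 22.9% in either direction. These were ITGAV (-3.005, SE 0.28, limma adjusted p = 0.000674), ITGA2 (-2.95, SE 0.52, adjusted p = 0.00668), ITGA6 (-1.71, SE 0.18, adjusted p = 0.000927) and ITGB8 (-1.45, SE 0.43, adjusted p = 0.0452). With the length trend removed 6.17% of genes were called, and ITGAV alone among the subunits (-1.80, SE 0.27, limma adjusted p = 0.0144). ITGB8 was then at -0.055. Its call as deposited also ended without a filter on low values (limma, adjusted p = 0.0721), after median-centring (-1.002) or quantile normalization (-1.15) and on leaving out any single RPL siRNA library except HCT116 with RPL27 siRNA (-1.51 to -1.29, limma adjusted p between 0.0648 and 0.0806). Each of these values rests on 1 NC library per line. The RPL siRNA libraries alone give the spread in this fit, and each NC library is assumed to vary as they do.

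The RPL siRNAs were also set against each other, which leaves the NC libraries out. RPL27 siRNA went with more ITGA3 and ITGA2 and less ITGB1 mRNA than the other RPL siRNAs in each line. ITGA3 had 6151 RPKM in HCT116 with RPL27 siRNA, against 3022 and 3659 RPKM with RPL9 and RPL17 siRNA. In HT29 it had 5349 RPKM, against 3200.4 and 3919 RPKM. The RPL27 library was the highest of its line in each case.

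ITGA2 had 961 RPKM in HCT116 with RPL27 siRNA, against 632 and 596 RPKM with RPL9 and RPL17 siRNA, and 1402 RPKM in HT29, against 993 and 733 RPKM. ITGB1, the chain shared by both alpha chains, had 3698 RPKM in HCT116 with RPL27 siRNA, against 5102 and 5727 RPKM, and 3600.1 RPKM in HT29, against 5856 and 6057 RPKM. Among the RPL siRNA libraries of each line, then, the shared beta chain was lowest where these alpha chains were highest. In the 6 RPL siRNA libraries, where 1.25% of all genes were called, these were the 3 of 10 subunits past the threshold. ITGA3 was higher by 0.74 (SE 0.07, limma adjusted p = 0.0206) and ITGA2 by 0.68 (SE 0.09, adjusted p = 0.0382), and ITGB1 was at -0.64 (SE 0.06, adjusted p = 0.0149). The same differences in the fit of 8 libraries, whose spread includes the HT29 NC library, had adjusted p of 1.0, and no gene was called there, with 601 genes at an unadjusted p under 0.05. ITGA3 was also lower with RPL9 siRNA than with the other RPL siRNAs in the 6 libraries (-0.58, SE 0.07, limma adjusted p = 0.039), where 0.707% of genes were called. No subunit was called for RPL17 siRNA, where 0.42% were.

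Against NC itself, ITGA3 with RPL27 siRNA was at 1.34 (SE 0.24, limma adjusted p = 0.126) in 8 libraries. It passed with the length trend removed, at 0.98 (SE 0.12, adjusted p = 0.0233, 2.13% of genes called).

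**Figure D5:**
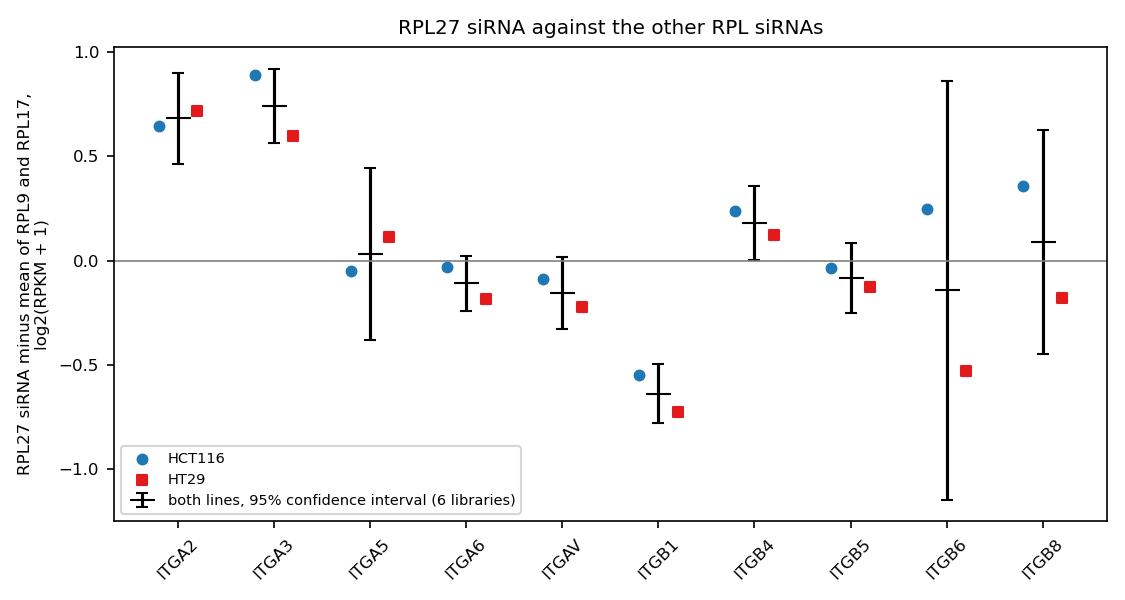
RPL27 siRNA minus the mean of RPL9 and RPL17 siRNA on the log2(RPKM + 1) scale in HCT116 (circles) and HT29 (squares), with the estimate over both lines and its 95% confidence interval in the 6 RPL siRNA libraries. ITGA2 and ITGA3 lie above 0 and ITGB1 below 0 in each line, and the intervals of ITGB6 and ITGB8 are wide and include 0.

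Among ligands and partners, no listed gene passed when the averaged RPL siRNAs were tested against NC in 8 libraries. With the length trend removed, where 3.38% of all genes were called higher and 3.97% lower, the laminin chains LAMB3 and LAMA3, parts of laminins that epithelial integrins bind, were called higher. These genes were singled out after their values were seen. LAMB3 had 2227, 1581 and 951 RPKM in HCT116 with RPL9, RPL17 and RPL27 siRNA, against 339 RPKM with NC, and 1433, 1002 and 685 RPKM in HT29, against 389 RPKM with NC. All RPL siRNA libraries were above the NC library of their line, which they share. The share of all genes so placed was not computed. LAMB3 was at 1.49 (SE 0.28, limma adjusted p = 0.0343) and LAMA3 at 1.18 (SE 0.16, adjusted p = 0.0173). In HCT116 alone, which is what remains without the HT29 NC library, LAMB3 was at 2.14 and LAMA3 at 1.19. PLEC, which links ITGB4 to keratin, was the 1 of 7 hemidesmosome partners called (1.20, SE 0.18, limma adjusted p = 0.0226). Of 7 genes of the latent TGF-beta complex 2 were higher, the latent binding protein LTBP2 (1.53) and the cytokine TGFB2 (1.25). Of 22 focal adhesion genes 1 was higher, the adaptor SHC1 (0.75). Of 21 trafficking genes RAB25, a GTPase of recycling vesicles, was at 0.59 and HAX1 at -0.59, 1 called in each direction. As deposited, RAB25 was below NC in HT29, with 450, 438 and 374 RPKM with RPL9, RPL17 and RPL27 siRNA, against 481 RPKM.

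Other ligand and receptor genes were lower with the RPL siRNAs in the same fit, where 3.97% of genes were called lower and 3.38% higher. Fibronectin, FN1, the ligand of ITGA5, was at -1.19 (SE 0.14, limma adjusted p = 0.0153). As deposited, FN1 was lower in HCT116, with 141, 176 and 155 RPKM with RPL9, RPL17 and RPL27 siRNA, against 351 RPKM with NC. In HT29 as deposited FN1 was not below NC, with 86.5, 104.7 and 87.2 RPKM, against 84.3 RPKM with NC. ITGA7, a laminin receptor chain best known from muscle, was at -1.67 (SE 0.24, adjusted p = 0.0201) and ITGA2B at -0.99, the 2 of 12 other integrin subunits called. CD9, CD81 and SLC3A2 were the 3 of 15 membrane partners called, at -0.58, -0.59 and -0.94. CYR61, a secreted integrin ligand, was higher (1.56), and with FN1 made 2 of 15 matrix ligands. The kindlin FERMT1, an integrin activator, and the focal adhesion protein LPXN were higher (0.91 and 1.67), 2 of 30 activators and actin linkers. Of 8 epithelial markers KRT18 and KRT19 were called higher (0.53 and 0.98), and their part in the result was not tested. Between the RPL siRNAs, LAMB3 was lower with RPL27 siRNA than with the others (-0.89, SE 0.07, limma adjusted p = 0.00897, 6 libraries).

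For each subunit the gene most alike in log2(RPKM + 1) over the 8 libraries was sought among the 12387 that averaged 5 RPKM or more. Pearson r was 0.997 for ITGAV with HTT and for ITGA6 with PUS7L, 0.996 for ITGB5 with COL16A1, 0.994 for ITGA2 with FAM102B, 0.991 for ITGB1 with FBXO10 and for ITGB6 with TRPS1, and 0.990 for ITGB8 with RASSF6. ITGB4 was most like GMEB2 (0.981), ITGA5 most like ANKLE1 (0.977) and ITGA3 most like MDGA1 (0.963). The 8 points share the HT29 NC library, and r is a description. MDGA1 shared the RPL27 pattern of ITGA3, with 65.9 RPKM in HCT116 with RPL27 siRNA, against 22.8 and 22.9 RPKM with RPL9 and RPL17 siRNA, and 55.6 RPKM in HT29, against 17.1 and 23.3 RPKM.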

How the data were processed

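Total RNA of 8 transfected samples was sequenced after Illumina TruSeq preparation, per the labels' protocols. Per the submitters' processing notes, CASAVA 1.8.2 and TopHat2 2.0.9 were used with hg19. The assignment of reads to genes is not described in the labels. The deposited values are RPKM, as the authors made them, for 19124 symbols. Tests used log2(RPKM + 1) and the 14281 genes averaging 1 RPKM or more, which include all 10 subunits.

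limma 3.58.1 (trend, R 4.3.3) was fitted with cell line and siRNA as terms, leaving 3 residual degrees of freedom, and separately with an interaction between line and the presence of any RPL siRNA. Tests are two-sided, with Benjamini-Hochberg adjustment over all tested genes and a threshold of 0.05. The procedure was tested on simulated data with independent noise and no trend with length. That test therefore does not cover the trend of the HT29 NC library. For length removal, a natural spline (5 degrees of freedom) of log2 transcript length was fitted per library on genes averaging 5 RPKM or more, for 14180 tested genes with a length. Lengths are the longest protein-coding GENCODE v29 transcript of the symbol, a rule chosen after a match by accession gave a partial ITGAV transcript. Depth was inferred from 1186 single-exon genes, where 51.8% to 59.6% of low values came within 0.05 of whole reads. The estimate is rough, so no counting interval is given. Promoter windows are from RefSeq (GRCh38.p14). The window table used has entries for 8 of 10 subunits, and ITGA3 and ITGB4 are not among them.

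Alternatives tried were a pseudocount of 0.1 or 5, a filter at 5 RPKM or none, median-centring, quantile normalization, limma without trend or with robust variances, no cell line term, length removal, each library left out and the 6 RPL siRNA libraries alone. Length removal combined with the last or with leaving out HT29 NC was added after seeing the data. All subunits are named, with the most alike gene of each. For the line and the averaged RPL siRNA comparisons in 8 libraries, as deposited and with length removed, up to 3 genes of each list past the threshold are named each way. List genes of the other comparisons are not given, apart from LAMB3. The members and lists were chosen with earlier results of these data known. Of the listed partner genes, 1 is not reported here.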

Additional observations from a re-analysis of the deposited data

Results flagged for a closer look

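The RPL siRNA difference from NC differed between the lines, by the interaction test in limma, for 4 subunits. In that test 22.9% of all genes were called, 16.8% lower, and the 3 RPL siRNA libraries of a line served as replicates. HCT116 minus HT29 on the log2(RPKM + 1) scale, ITGAV was at -3.005, ITGA2 at -2.95, ITGA6 at -1.71 and ITGB8 at -1.45. All 3 RPL siRNA libraries of HT29 were above HT29 NC for each of them, and in HCT116 this held for ITGA6 and ITGB8. The HT29 NC library is the one whose levels ran with transcript length. With that trend removed ITGAV alone of the subunits passed, at -1.80, where 6.17% of genes were called. With 1 NC library per line, the line and that library cannot be told apart. The RPL siRNA libraries alone give the spread in this test, and each NC library is assumed to vary as they do.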

How the results depend on the processing

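Single-subunit results were recomputed for the comparisons whose values are given above. Of these single-subunit values, 662 kept their direction and side of the threshold, 59 passed it only under an alternative, 19 lost it and 50 changed sign. The cause was not tested. Counts of called genes are not part of this tally and are given below.

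Line differences of 4 subunits changed sign. With the length trend removed ITGA2 was at -0.025 and ITGAV at -0.051. In the 6 RPL siRNA libraries ITGA2 was at -0.50, ITGA6 at -0.21, ITGAV at -0.56 and ITGB1 at -0.080, and with length removal added at -0.43, -0.16, -0.50 and -0.024, the same as with length removal and without HT29 NC. With each library left out in turn they ran from -0.50 to 0.54 for ITGA2, -0.21 to 0.38 for ITGA6, -0.56 to 0.49 for ITGAV and -0.080 to 0.39 for ITGB1, the lowest values being those without either NC library.

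In the mean RPL siRNA comparison with NC, ITGB5 was at -0.17 after median-centring, -0.033 after quantile normalization, -0.24 with length removed and -0.15 with length removed and without HT29 NC, where ITGA2 was at -0.21 and ITGB1 at -0.088. Leaving out each library gave -0.24 to 2.71 for ITGA2, -0.11 to 1.19 for ITGB1 and -0.18 to 0.25 for ITGB5, the lowest without HT29 NC.

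For RPL27 siRNA against the others, ITGB6 was at 0.39 with a pseudocount of 0.1. Leaving out each library gave -0.12 to 0.18 for ITGA5, -0.33 to 0.11 for ITGA6, -0.60 to 0.29 for ITGAV, -0.67 to 0.39 for ITGB6 and -0.20 to 0.38 for ITGB8. In the difference between lines, length removal gave 0.030 for ITGA3, 0.31 for ITGA5, 0.10 for ITGB4 and 0.16 for ITGB5, and median-centring 0.14 for ITGA5 and 0.013 for ITGB5.

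Counts of called genes moved more. For the lines 265 were called without a filter, 1301 with length removed, 3265 in the 6 RPL siRNA libraries, 3780 there with length removed and 3779 with length removed and without HT29 NC (185 to 3272 leaving out each library). For the mean of the RPL siRNAs, 10 and 9 were called with pseudocounts of 0.1 and 5, 6 without a filter, 7 after median-centring, 83 after quantile normalization, 12 without trend and 12 with robust variances, 5 without a line term, 1042 with length removed and 1835 with it and without HT29 NC (0 to 6945). For RPL9 siRNA against NC these were 2 without a filter, 4 at a mean of at least 5 RPKM, 2 median-centred, 10 quantile normalized, 0 without trend, 0 without a line term, 704 with length removed and 2110 with it and without HT29 NC (0 to 6598). For RPL17 they were 0, 0, 10, 0 and 0 (no filter, median-centred, quantile, no trend, no line term), 70 and 918 (0 to 6313), and for RPL27 1 after quantile normalization, 302 and 1365 (0 to 6375). Of the siRNAs against each other, RPL9 had 2 after quantile normalization, 1 with length removed, 101 in the 6 libraries, 129 there with length removed and 132 with it and without HT29 NC (0 to 102). RPL17 had 2, 2, 60, 58 and 59 (0 to 59) and RPL27 1, 1, 179, 202 and 206 (0 to 177). The difference between lines had 875 with length removed (2509 to 3157, 6 fits, since it cannot be had without an NC library). Subunits at least 1 above NC were 2 in HCT116 with a pseudocount of 0.1 (1 to 2) and 5 in HT29 after median-centring or length removal (7 to 8).

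Leaving out either NC library raised the calls, to 3272 without HT29 NC and 3242 without HCT116 NC for the lines and to 1838 and 6945 for the mean of the RPL siRNAs, and 1 line then holds the only control. The labels give no replicate numbers. The fit with line and siRNA as terms is already paired by line for the siRNA comparisons, and the fit without a line term is its unpaired form. Depth is known only roughly, which limits what can be said of ITGB6 in HCT116.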
